A study of Mus musculus with 4 samples.

Results

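The AP-1 and immediate early transcripts described here are 10 genes out of 50679 in the deposited table: Fos, Fosb, Fosl1 and Fosl2, Jun, Junb and Jund, and Atf3, Egr1 and Ier2. They were chosen by name, and 10 of 10 averaged 1 FPKM or more. FPKM divides a gene's fragments by its length and by the mapped fragments of the library, so levels can be compared between genes. Their levels were compared between mouse mammary tumour cells with PCNA 211F (2 libraries, 211F 1 and 211F 2) and with PCNA WT (2 libraries, WT 1 and WT 2). PCNA is the clamp that tethers polymerases to DNA during replication. Cells of both genotypes carry PyMT, the polyoma middle T oncogene, per the series' design text. Per the labels, mice were 10 weeks old at tumour collection; tumours were dissociated and cells were captured with an antibody to EpCAM before being plated in serum at a density of 100000. The labels call the cells luminal epithelial adenocarcinoma. They do not say which promoter drives PyMT, nor whether the 2 repeats of a genotype came from separate animals. The p-values therefore reflect only the spread among these libraries. Epcam differed between repeats, at 77.3 and 449.6 FPKM in 211F and 443.6 and 0.893 FPKM in WT. So did the sum of 14 mesenchymal and fibroblast markers, at 4281 and 45.2 FPKM in 211F and 278 and 3530.5 FPKM in WT. How much of the spread is technical was not tested.

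AP-1 is a pair of bZIP proteins, which grip each other through a leucine zipper and bind DNA through a basic region beside it. Jun proteins pair with each other or with Fos proteins, while Fos proteins need a Jun partner. Several of these genes are immediate early genes: growth factors, serum and stress switch them on within minutes through MAP kinases, with no new protein needed, and most of their transcripts decay quickly. Fosl1 and Fosl2 lack the strong activation domain of Fos and last longer after a stimulus. In mammary tumours Fosl1 is known as a gene of the invasive, mesenchymal state.

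The libraries did not all match their cell label. Epcam, the capture antigen, was at 77.3 and 449.6 FPKM in 211F 1 and 211F 2, against 443.6 and 0.893 FPKM in WT 1 and WT 2. The 13 epithelial markers summed to 3313 and 3634.5 FPKM in the 211F libraries and to 3246 and 7.52 FPKM in the WT libraries, so WT 2 had almost none. Keratins weigh heavily in these sums. Krt5, Krt14, Krt8 and Cldn4 were higher in 211F 1 than in WT 1 (Krt5 1029 against 245 FPKM, Krt14 1297 against 1058 FPKM). The other listed epithelial markers were lower in 211F 1 than in WT 1, among them Cldn7 (5.07 against 60.1 FPKM) and Esrp1 (17.4 against 110 FPKM). The 14 mesenchymal and fibroblast markers summed to 4281 FPKM in 211F 1 and 45.2 FPKM in 211F 2, against 278 FPKM for WT 1 and 3530.5 FPKM for WT 2. Leukocyte markers (11) summed to 2.37 to 4.25 FPKM in 211F and 2.43 to 4.45 in WT, with Ms4a1 listed at 0 in every library. Endothelial markers (6) summed to at most 2.11 FPKM and adipocyte markers (4) to at most 2.28 FPKM in any library. Pcna itself was at 173 and 119 FPKM in 211F and 155 and 147 FPKM in WT, and since the allele alters the protein, this level does not check the labels. In long genes with a single transcript (3000 bp or more), 94.4% to 95.8% of low values were whole multiples of 1 step, to within 0.1 of a fragment. From that step and the longest annotated transcript, the Fos values stand for about 157 to 303 fragments and the Fosb values for about 59 to 532. Fosl1 stands for about 109 to 6494, Atf3 for about 134 to 588, and the other 6 members for at least 1575 in each library. By the same step, estimated depth relative to WT 1 was 1.09 in 211F 1, 0.94 in 211F 2 and 1.72 in WT 2. These fragment ranges therefore follow depth as well as level.

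Promoter sequence is shown for Fos, Fosb and Junb, the low and high ends of the levels below, because these promoters share the letters TGACG, the core of the cyclic AMP response element that CREB and ATF proteins bind. The stretches run from 140 to 21 bases before the RefSeq start, 5′ to 3′ on the gene's strand (RefSeq, GRCm38.p6), with TGACG in capitals. Fos lies at chr12:85473750-85473869 on the plus strand, Fosb at chr7:19310066-19310185 on the minus strand and Junb at chr8:84978769-84978888 on the minus strand.
Fos: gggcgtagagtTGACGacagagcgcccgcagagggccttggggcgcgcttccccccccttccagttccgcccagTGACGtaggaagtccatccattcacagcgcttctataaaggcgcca
Fosb: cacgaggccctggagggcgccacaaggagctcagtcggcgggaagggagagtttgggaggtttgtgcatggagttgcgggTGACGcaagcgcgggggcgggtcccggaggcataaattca
Junb: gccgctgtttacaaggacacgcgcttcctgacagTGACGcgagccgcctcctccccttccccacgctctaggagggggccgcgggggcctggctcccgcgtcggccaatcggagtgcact

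In Fos the letters stand at 129 and at 66 bases before the start, in Fosb at 60 and in Junb at 106. Of the 10 members, 7 were matched in the promoter table, and Fosl1, Egr1 and Ier2 were not. Within the 250 bases before the start, TGACG on either strand was in 4 of the 7 (Fos, Fosb, Junb and Atf3) and in 17.8% of all 32851 promoters. That motif was added after the longer ones had been searched. GGGCGG, the GC box, was in 5 of the 7 (Fos, Fosb, Fosl2, Jun and Atf3) and in 32.7% of all promoters. The AP-1 site TGANTCA was in 0 of the 7 against 6.75% of all promoters. TGACGTCA was in 0 against 1.55%, and it contains TGACG. The CArG box, which serum response factor binds, was in 0 against 1.47%. At such low shares 0 of 7 says little about the members, and bases further upstream were not searched. These matches describe the letters in this window and do not show binding.

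Among the Fos family, Fosl1 was the gene whose level differed most between libraries, while Fos itself hardly moved. Fosl1 (FRA1; chromosome 19, 5447547 to 5455946, plus strand; positions are GENCODE M21 on GRCm38) stood at 47.2 FPKM in 211F 1 and 14.2 FPKM in 211F 2, against 1.67 FPKM for WT 1 and 57.7 FPKM for WT 2. WT 2 and 211F 1 were high, 211F 2 intermediate and WT 1 low, so the WT values enclosed both 211F values. The 2 WT libraries differed 34.5-fold and the 2 211F libraries 3.32-fold. The means were 30.7 ± 23.3 FPKM in 211F and 29.7 ± 39.6 FPKM in WT (SD, n = 2 each). The difference was 1.11 ± 1.69 on the log2 scale (SE; 95% interval -3.58 to 5.80; limma adjusted p = 0.99995). Without WT 1 it was -1.11 and without WT 2 it was 3.34. Its range over the libraries, 4.46 log2 units, exceeded that of 96.5% of tested genes.

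The 2 libraries with most Fosl1 were also the 2 with the highest mesenchymal and fibroblast marker sums, 211F 1 and WT 2. Markers within those sums differed. Vim was at 1856 FPKM in 211F 1 and 1634 FPKM in WT 2, and Zeb1 at 41.6 and 52.3 FPKM. Col1a1, however, was at 2.70 FPKM in 211F 1 and 437 FPKM in WT 2, and Col3a1 at 3.63 and 118 FPKM. The other pair did not follow: 211F 2 had 8.50 times the Fosl1 of WT 1 with a lower mesenchymal sum. In 211F 2 and WT 1, Vim was at 1.86 and 124 FPKM, but Zeb1 was at 0.996 and 0.657 FPKM. The part of cell type in the Fosl1 level was not tested. In bulk RNA, fewer cells of a type and less RNA per cell cannot be told apart. Exons of Ccdc85b, a gene on the opposite strand, cover 57.2% of Fosl1 exon bases. Ccdc85b was at 30.0 and 28.8 FPKM in 211F, against 12.6 and 40.8 FPKM in WT. The order of the libraries was the same for Fosl1 and Ccdc85b. How reads of this overlap were assigned is not given, so the Fosl1 level is uncertain to that extent.

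**Figure D1:**
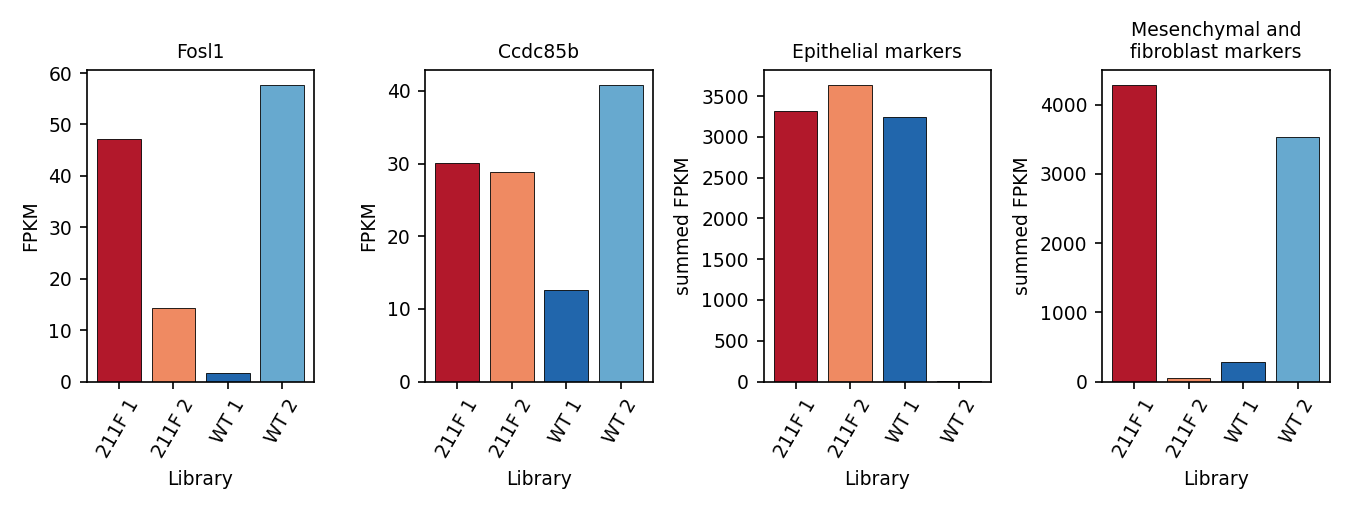
Levels of Fosl1 and of the overlapping gene Ccdc85b in FPKM, and summed FPKM of the epithelial (13) and mesenchymal and fibroblast (14) marker lists, with 1 bar per library. Fosl1 was highest in WT 2 (57.7) and 211F 1 (47.2), the libraries with the 2 highest mesenchymal sums.

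Fos (chromosome 12, 85473890 to 85477273, plus strand), the archetypal serum-induced AP-1 subunit, was low and nearly even. It stood at 2.64 and 2.27 FPKM in 211F, against 2.58 and 2.38 FPKM in WT, and the WT values lay between the 211F values. The difference was -0.01 ± 0.40 (SE; 95% interval -1.13 to 1.10; limma adjusted p = 0.99995). Its highest library exceeded its lowest 1.16-fold, a narrower log2 range than in all but 1.04% of tested genes, although the +1 shrinks ranges at such low levels. Fosb (chromosome 7, 19302696 to 19310051, minus strand), another transiently induced subunit, was at 3.67 and 0.473 FPKM in 211F, against 0.554 and 1.10 FPKM in WT. Its highest value stood in 211F 1, and 211F 2 was the lowest of the 4. The difference of 0.54 ± 0.77 became -0.29 without 211F 1.

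Fosl2 (FRA2; chromosome 5, 32135801 to 32157842, plus strand), a long-lived Fos protein, was at 56.8 and 48.3 FPKM in 211F, against 31.4 and 46.1 FPKM in WT. Both 211F values lay above both WT values, but 211F 2 and WT 2 were close. The difference was 0.45 ± 0.29 (SE; 95% interval -0.37 to 1.26; limma adjusted p = 0.99995), and without WT 1 it was 0.18.

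The makeup of the Fos family therefore differed from library to library. Fosl1 held 42.8% and 21.8% of the family's summed FPKM in 211F, against 4.62% and 53.7% in WT. Fosl2 held 51.5% and 74.0% in 211F, against 86.7% and 43.0% in WT, so WT 2 was the library in which Fosl1 exceeded Fosl2. Fos and Fosb were minor everywhere, with Fos at 2.39% and 3.47% in 211F against 7.13% and 2.22% in WT. The 4 genes summed to 110.3 and 65.2 FPKM in 211F, against 36.2 and 107 FPKM in WT. That sum relative to the Jun family sum was 0.643 and 0.407 in 211F, against 0.254 and 0.820 in WT. These shares and ratios take the Fosl1 and Jund levels as listed. Both levels are uncertain because of overlapping genes on the opposite strand.

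**Figure D2:**
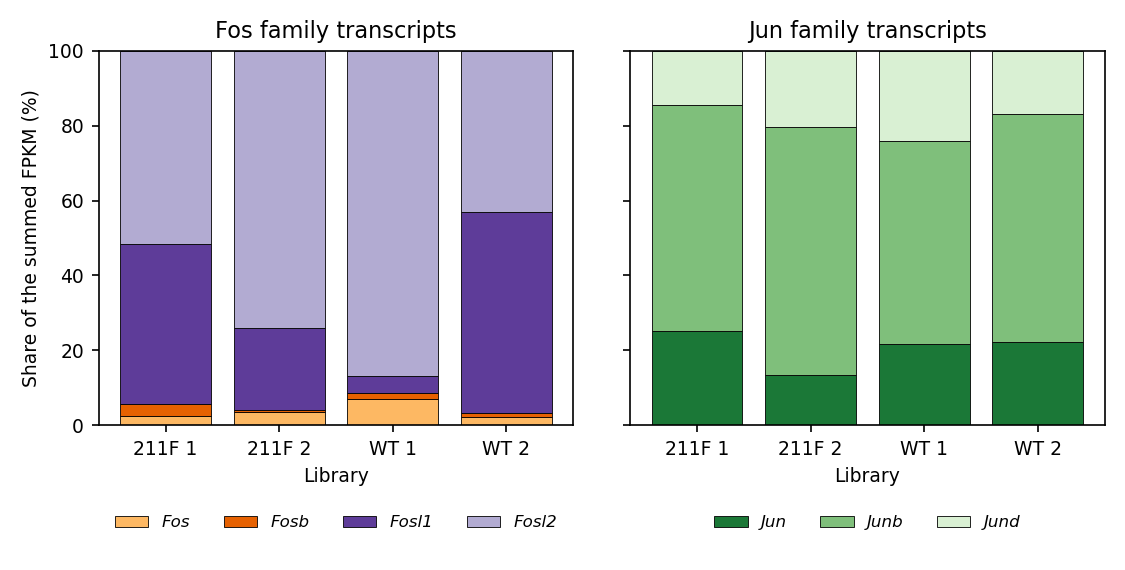
Share of the summed FPKM of the Fos family (left) and of the Jun family (right) held by each gene, with 1 bar per library. Fosl1 held between 4.62% (WT 1) and 53.7% (WT 2) of the Fos family, while Junb held the largest part of the Jun family in each of the 4 libraries. Fosl1 and Jund, each overlapped by a gene on the opposite strand, are taken as listed.

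The Jun family was steadier, and Junb led it. Junb (chromosome 8, 84974484 to 84978718, minus strand), which restrains Jun activity in some settings, was the most abundant of the 10 members in each library. It was at 104 and 106 FPKM in 211F, against 77.2 and 79.7 FPKM in WT. Replicates lay close together, and both 211F libraries were above both WT libraries. The means were 105 ± 1.80 and 78.4 ± 1.73 FPKM (211F and WT; SD, n = 2 each), a ratio of 1.34. The difference of 0.41 ± 0.20 was larger than the gap between replicates, 0.03 in 211F and 0.04 in WT. It did not pass the test across genes (95% interval -0.14 to 0.97; limma unadjusted p = 0.107, adjusted p = 0.99995), in which each gene's spread is drawn toward that of others. Leaving out a library kept it between 0.39 and 0.44, a range that the replicate gaps fix in advance. Exons of Prdx2, on the other strand, cover 7.52% of Junb exon bases, and Prdx2 was at 126 and 124 FPKM in 211F against 163 and 118 FPKM in WT.

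Jun (chromosome 4, 95049034 to 95052222, minus strand), the founding partner of Fos and a target of JNK kinases, was at 43.3 and 21.6 FPKM in 211F, against 30.9 and 29.2 FPKM in WT. The 211F libraries lay on either side of the WT libraries. The difference was 0.03 ± 0.41 (SE; 95% interval -1.10 to 1.15; limma adjusted p = 0.99995). Its sign turned under 3 rescalings and without WT 2 or 211F 1. The antisense gene Junos covers 7.28% of Jun exon bases, at 3.58 and 2.12 FPKM in 211F against 5.07 and 3.95 FPKM in WT.

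Jund (chromosome 8, 70698949 to 70700616, plus strand), the most constitutive Jun gene in many tissues, was at 24.6 and 32.4 FPKM in 211F, against 34.4 and 22.0 FPKM in WT. The groups overlapped, and the difference was 0.04 ± 0.34 (SE; limma adjusted p = 0.99995), with a sign that turned without WT 2, without 211F 2 and under upper quartile scaling. The level of Jund is uncertain. Gm11175, annotated as antisense, covers 52.6% of its single exon and was listed at 197 and 264 FPKM in 211F against 301 and 155 FPKM in WT. It was above both Jund and Junb in each library. The order of the libraries was the same for Jund and Gm11175, and without the authors' strand setting their reads cannot be told apart. The rank of Junb over Jund is therefore uncertain too.

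**Figure D3:**
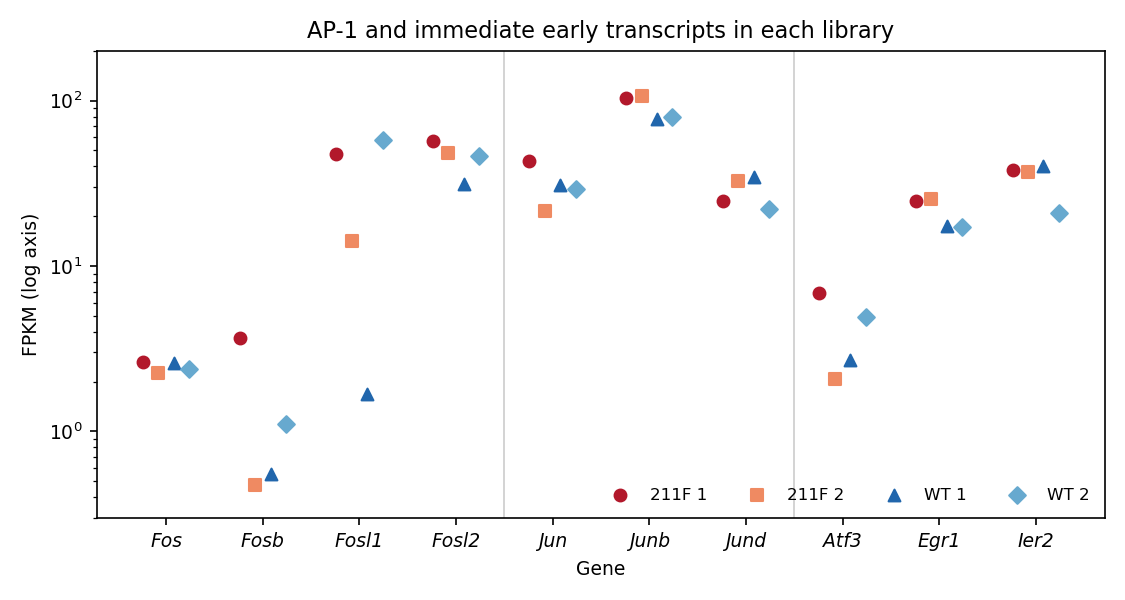
FPKM of the 10 members (log axis) with 1 point per library; grey lines divide the Fos family, the Jun family and the other members. Junb lies highest in each library, Fosl1 spans 1.67 to 57.7 FPKM, and Fos lies between 2.27 and 2.64 FPKM.

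Egr1 (chromosome 18, 34859823 to 34864984, plus strand), a zinc finger factor and classic readout of ERK signalling, showed the tightest replicates. It was at 24.9 and 25.3 FPKM in 211F, against 17.4 and 17.1 FPKM in WT. Both 211F libraries lay above both WT libraries, with a ratio of means of 1.45. The difference was 0.51 ± 0.23 (SE), against gaps of 0.02 between replicates of either genotype. It did not pass the test across genes (95% interval -0.14 to 1.16; limma unadjusted p = 0.0943, adjusted p = 0.99995). Leaving out a library kept it between 0.50 and 0.52, a range that the replicate gaps fix in advance. Its paralogs did not show the same order of libraries. Egr3 was at 5.63 and 0.387 FPKM in 211F, against 0.402 and 0.393 FPKM in WT, and Egr2 was at 1.52 and 0.150 FPKM in 211F against 0.410 and 0.653 FPKM in WT. Both paralogs were highest in 211F 1 and were chosen after their values were seen.

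Ier2 (chromosome 8, 84661331 to 84662852, minus strand), a nuclear protein of the early serum response, was at 38.1 and 37.0 FPKM in 211F, against 40.0 and 21.0 FPKM in WT. WT 2 was low and the other 3 libraries were alike. The difference was 0.36 ± 0.38 (SE; limma adjusted p = 0.99995), and -0.09 without WT 2. Atf3 (chromosome 1, 191170296 to 191218039, minus strand), a stress-induced bZIP factor that can pair with Jun proteins, was at 6.87 and 2.06 FPKM in 211F, against 2.71 and 4.91 FPKM in WT. It was highest in 211F 1 and WT 2, and the groups overlapped (0.07 ± 0.64, SE; limma adjusted p = 0.99995). Without 211F 1 the Atf3 difference was -0.62, and without WT 1 it was -0.27.

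Across the members, 0 of 10 passed the adjusted limma test, as did 0% of the 12767 genes tested, and with 2 libraries per group the smallest p of an exact two-sided permutation test is 0.333. At an unadjusted p under 0.05 there were 0 members, against 241 genes overall (1.89%). Groups lay apart in 3 of 10 members higher in 211F (Fosl2, Junb and Egr1), against 15.2% of all genes tested, and in 0 of 10 lower, against 11.6%. Differences were positive in 9 of 10 members, against 53.1% of tested genes, but 3 of those 9 (Jun, Jund and Atf3) were under 0.07. The median difference was 0.39 for the members and 0.03 for all genes tested. Between the same libraries, 0 cell type markers were called. Of 13 tested epithelial markers 12 were positive (median 2.26), against 2 of 12 tested mesenchymal and fibroblast markers (median -0.70). Groups overlapped in 11 of these 13 and in 12 of these 12, against 73.2% of all genes tested. The epithelial sum was 7.52 FPKM in WT 2 but 3246 FPKM in WT 1. The part of these markers in the members' differences was not tested. Leaving out each library gave 6 to 9 positive members and medians of 0.25 to 0.51.

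**Figure D4:**
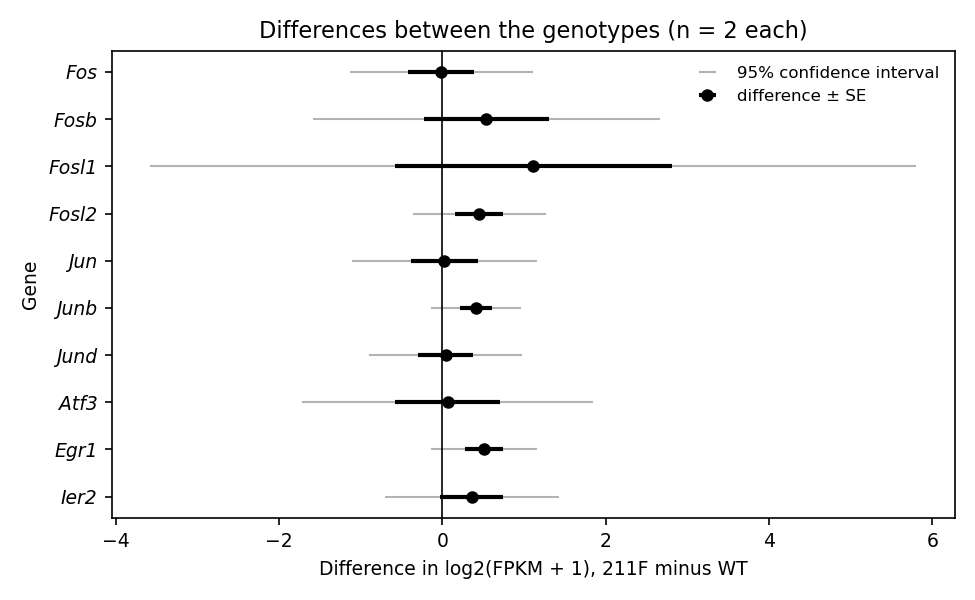
Difference in log2(FPKM + 1), 211F minus WT, for each member with its SE (thick line) and 95% interval (thin line) from limma, n = 2 libraries per genotype. The intervals of the 10 members include 0, and that of Fosl1 runs from -3.58 to 5.80.

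By order of listed FPKM, with the uncertain Jund level taken as listed, Junb came first in each library. Fos, Fosb and Atf3 stood among the last 4. In WT 1 Fosl1 joined these at place 9, whereas it was at place 2 in WT 2, place 3 in 211F 1 and place 7 in 211F 2. Egr1, Jun, Jund and Ier2 exchanged places between libraries, and their ranges over the libraries overlapped.

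The genes nearest in pattern to the most variable members were sought among 7559 other protein-coding genes that averaged 10 FPKM or more. Likeness was the root-mean-square distance between log2(FPKM + 1) profiles, each centred on its mean over the 4 libraries. Nearest to Fosl1 was Shox2, a homeobox factor, at a distance of 0.29, with 24.4 and 10.6 FPKM in 211F against 1.33 and 33.4 FPKM in WT. Timp1, an inhibitor of metalloproteases, followed at 0.38 with 416 and 69.4 FPKM in 211F against 22.6 and 402 FPKM in WT, and Gpx8 also at 0.38. All 3 shared the order WT 2 or 211F 1 highest, then 211F 2, then WT 1. Nearest to Fosb were Fermt2, an integrin activator (0.08), Bok (0.08) and Usp18 (0.09). Nearest to Atf3 were Col12a1 (0.05), Ano6 (0.06) and Elk3 (0.09), a partner of serum response factor at 49.4 and 20.9 FPKM in 211F against 21.3 and 38.5 FPKM in WT. With 4 libraries, many genes share such patterns.

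Other bZIP partners of AP-1 were mixed. Of 11 listed, 8 were tested, with 3 positive and 5 negative differences, a median of -0.21 and 0 called. Jdp2, a repressor that pairs with Jun, was at 10.7 and 11.7 FPKM in 211F, against 15.5 and 36.7 FPKM in WT (-1.03 ± 0.49, SE). Both 211F libraries lay below both WT libraries, as they did for Atf7 (19.3 and 27.3 FPKM in 211F, against 29.7 and 34.3 FPKM in WT). Among the 8 tested, groups overlapped in 4, against 73.2% of all genes tested. The small Maf gene Mafk was at 18.2 and 21.7 FPKM in 211F against 14.6 and 16.4 FPKM in WT, and Maf at 3.36 and 0.347 FPKM in 211F against 2.13 and 7.43 FPKM in WT.

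Other immediate early genes were divided: of 42 listed, 38 were tested, with 18 positive and 20 negative, a median of -0.02 and 0 called. Rhob, an early-response GTPase, was at 59.0 and 54.0 FPKM in 211F, against 27.3 and 33.9 FPKM in WT (0.87 ± 0.24, SE). Ier5l was at 33.0 and 22.4 FPKM in 211F, against 16.6 and 12.3 FPKM in WT. In the other direction, the kinase gene Pim1 was at 7.87 and 6.19 FPKM in 211F, against 14.2 and 18.3 FPKM in WT (-1.10 ± 0.32, SE), and Nfkbiz, an NF-kB cofactor, at 24.5 and 29.8 FPKM in 211F against 40.4 and 55.5 FPKM in WT. In these 4 genes, chosen by smallest p, the groups did not overlap, and their limma adjusted p was 0.99995 or above. Over the list, groups overlapped in 24 of the 38 (63.2%), against 73.2% of all genes tested.

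MAP kinases and the factors they act on varied less: 24 of 24 were tested, 15 positive and 9 negative, with a median of 0.07 and 0 called. Mapk3, which encodes ERK1, was at 91.4 and 83.9 FPKM in 211F, against 217 and 112 FPKM in WT. Nras stood at 64.4 and 74.7 FPKM in 211F against 56.3 and 34.1 FPKM in WT.

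Feedback inhibitors of the MAP kinases numbered 16, of which 14 were tested, 8 positive and 6 negative, with a median of 0.42 and 0 called. Dusp8, a phosphatase of JNK and p38, was at 12.5 and 15.9 FPKM in 211F, against 6.28 and 3.12 FPKM in WT (1.46 ± 0.43, SE). Its groups did not overlap, while those of 12 of the 14 did (85.7%), against 73.2% of all genes tested. Dusp7 was at 31.8 and 70.6 FPKM in 211F against 33.2 and 9.98 FPKM in WT. Dusp5, a nuclear ERK phosphatase, was at 29.9 and 6.24 FPKM in 211F against 3.32 and 9.12 FPKM in WT. Spred1, which restrains RAF, was at 15.9 and 14.7 FPKM in 211F against 21.4 and 18.9 FPKM in WT.

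Among the 6 pathway lists, genes known as AP-1 targets had the widest range of differences, from -1.73 to 2.54. Of 31 listed, 28 were tested, with 19 positive and 9 negative, a median of 0.59 and 0 called, and the groups overlapped in 23 of the 28 (82.1%), against 73.2% of all genes tested. The summed level of all 31 was 5354 and 1121 FPKM in 211F against 1297 and 2129 FPKM in WT, highest in 211F 1. Areg, an EGF receptor ligand, was at 11.3 and 32.7 FPKM in 211F, against 8.41 and 0.315 FPKM in WT (2.54 ± 1.16, SE). Cd44, a hyaluronan receptor, was at 389 and 175 FPKM in 211F against 126 and 139 FPKM in WT, and Hbegf at 118 and 17.5 FPKM in 211F against 5.54 and 18.6 FPKM in WT. Plat, tissue plasminogen activator, lay in the other direction, at 19.1 and 7.68 FPKM in 211F against 24.1 and 75.9 FPKM in WT. The epithelial and mesenchymal marker sums differ between the same libraries, and their part in these values was not tested.

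Stress genes outside AP-1, which tissue dissociation can induce together with Fos and Jun, went both ways: 14 of 14 were tested, 8 positive and 6 negative, with a median of 0.01, differences from -1.20 to 0.50 and 0 called. The chaperone gene Hsp90aa1 was at 695 and 550.3 FPKM in 211F, against 452 and 422 FPKM in WT, the single gene of this list whose groups did not overlap. The groups of the other 13 overlapped (92.9% of the list), against 73.2% of all genes tested. Hspb1, a small heat shock protein, was at 218 and 7.82 FPKM in 211F against 123 and 81.5 FPKM in WT. Hsph1 was at 135 and 111 FPKM in 211F against 84.4 and 116 FPKM in WT, and Dnaja1 at 292 and 205 FPKM in 211F against 179.6 and 244 FPKM in WT.

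**Figure D5:**
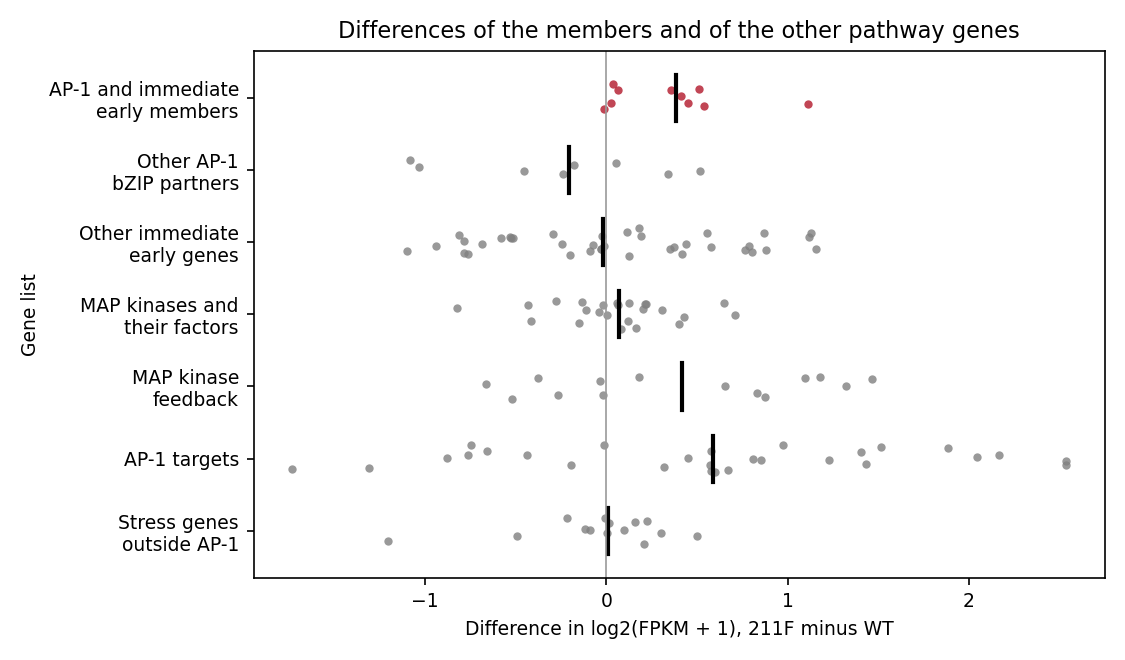
Difference in log2(FPKM + 1), 211F minus WT, for each tested gene of the members (red) and of 6 pathway lists (grey), with the median of each list as a black bar; vertical scatter within a row is for legibility. Medians run from -0.21 (other bZIP partners) to 0.59 (AP-1 targets), and each list holds genes on both sides of 0.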

How the data were processed

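RNA was measured in 4 libraries of cultured mouse mammary tumour cells, 2 labelled PCNA 211F and 2 labelled PCNA WT. The deposited table holds FPKM values made by the authors. TopHat2 2.0.13, DESeq2 and GRCm38 are named in the submitters' processing notes, and no source used here names the program behind the FPKM values, its annotation or its strand setting. Identifiers were matched to GENCODE M21 symbols for 50369 of 50679 genes.

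Differences are 211F minus WT on log2(FPKM + 1), fitted in limma 3.58.1 (R 4.3.3) over the 12767 genes that averaged 1 FPKM or more, two-sided, with an intensity trend and Benjamini-Hochberg adjustment over those genes at 0.05. The code was tested on simulated data. The labels give replicate numbers, but no source says that they pair libraries. The members, the gene lists and the rule for named genes were chosen with earlier results of these data known. The rule named every member, up to 4 genes of smallest p in each pathway list, and the 3 genes nearest in pattern to each of 3 members. Genes marked as chosen after their values were seen fall outside it. Alternative pseudocounts, filters, scalings, a replicate block and leaving out each library were tried. A planned protein comparison was not run. Some genes that the rule named are not reported here.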

Additional observations from a re-analysis of the deposited data

How the results depend on the processing

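limma called 0 genes in the main fit and in each of the 14 alternatives, and 0 members. The count of genes at an unadjusted p under 0.05 was 241. It was 745 with no filter, where more genes were tested, 142 with the replicate block and from 221 to 836 on leaving out each library, highest without WT 1. Across genes, the deviations of libraries with the same number had r = -0.465. With the replicate block 0 genes were called, and with WT 1 set against 211F 2 and WT 2 against 211F 1, a pairing chosen after seeing the data, 0 were called and 520 had an unadjusted p under 0.05. The signs of Fosl2, Junb and Egr1 turned in no alternative, which their groups lying apart largely fixes. Signs turned for Jun with TPM scaling (-0.0038), upper quartile scaling (-0.023) and quantile normalization (-0.011), for Jund with upper quartile scaling (-0.011) and for Fos with quantile normalization (0.059). These main values were within 0.04 of 0, and the cause was not tested. Leaving out each library gave ranges of -0.092 to 0.063 for Fos, -0.29 to 1.37 for Fosb, -1.11 to 3.34 for Fosl1, -0.46 to 0.51 for Jun, -0.27 to 0.35 for Jund, -0.62 to 0.75 for Atf3 and -0.090 to 0.81 for Ier2. The remaining library of that group is then assumed to vary like the others. Fos, Fosb and Atf3 fall below a mean of 5 FPKM and have no value under that filter. Depth limits the low members most: Fosb in 211F 2 rests on about 59 fragments.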

Other observations

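Several early-response and AP-1 target genes shared the order in which 211F 1 and WT 2 were both high, and were chosen after their values were seen. Il1rl1, an interleukin-33 receptor gene long used as a Fos-responsive target, was at 275 and 0.142 FPKM in 211F, against 0.0823 and 129 FPKM in WT. Mmp14, a metalloprotease anchored in the membrane, was at 192 and 0.058 FPKM in 211F, against 0.223 and 74.6 FPKM in WT. Ccn1, an immediate early matricellular protein, was at 557 and 43.1 FPKM in 211F, against 60.8 and 558 FPKM in WT. Maff, a small Maf gene, was at 19.5 and 3.79 FPKM in 211F, against 3.63 and 28.5 FPKM in WT. In each of these genes the spread within a genotype exceeded the difference between the means, and limma's adjusted p was 0.99995 or above. The mesenchymal and fibroblast marker sums were high in the same 2 libraries, and their part in these levels was not tested. Genes with this order were not counted. Across the tested genes at large, 211F 1 also tended to deviate as WT 2 did (r = -0.465 for same-numbered libraries). Other listed AP-1 targets had other orders. Plau was at 48.3 and 12.05 FPKM in 211F against 15.8 and 5.94 FPKM in WT, and Ezr at 148 and 152 FPKM in 211F against 180 and 37.4 FPKM in WT.

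Dusp1, an immediate early phosphatase of MAP kinases, was also highest in WT 2 and 211F 1, with WT 2 well above 211F 1. It was at 10.3 and 3.57 FPKM in 211F against 1.505 and 50.7 FPKM in WT. Ccn2 was likewise highest in those libraries, with 211F 1 well above WT 2, at 749 and 20.1 FPKM in 211F against 63.7 and 136 FPKM in WT.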
